A study of Mus musculus with 12 samples.

Results

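Actin isoforms and filamins were followed through 12 RNA-seq libraries of mouse muscle stem cells (MuSCs), the Pax7-expressing cells from which skeletal muscle regenerates. The set holds 8 genes (Actb, Actg1, Acta1, Acta2, Actc1, Actg2, Flna and Flnc), taken by their symbols, each of which matched exactly 1 of the 55335 genes in the count files. All 8 passed the filter on low counts that left 22635 genes for testing. Actc1 and Actg2 had 3 or fewer reads in every library of 1 group each and passed through the other groups.

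Every library came from cells sorted for ZsGreen from hindlimb muscle of Pax7-ZsGreen mice, 3 to 6 months old, in which the fluorescent protein reports Pax7. Freshly isolated cells (F, replicates 1, 4 and 5) were lysed as they were sorted. The cultured cells grew in growth medium on plastic coated with Matrigel and fibronectin, for 2 days (2d-U, replicates 1, 2 and 3) or 5 days (5d-U, replicates 1, 2 and 6) without compression, or for 2 days without and then 3 days with a silicone device whose pillars hold the cells to a height of 4 µm (2+3d-C, replicates 4, 5 and 10). The labels name no other allele or agent. The study describes its experiments as repeated and these libraries as 3 per group, but the sources do not tie a library to an animal, sort or culture. The p-values therefore set differences between groups against the spread between these libraries, part of which may be technical. The design asks how compression changes the cells relative to the same culture time without it (5d-U), to its starting point (2d-U) and to the uncultured cells (F).

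The libraries held 12540745 to 62424851 reads on genes each. Markers of MuSCs were present in every group, with a summed level over 8 genes of 2097 to 5297 CPM (reads of a gene scaled to a fixed library total) in F, 932 to 1158 at 2 days, 504 to 886 at 5 days and 7577 to 10688 under compression. The largest parts under compression were Sdc4 and Vcam1 (means of 4846 and 2487 CPM). Single markers differed from the sum. Pax7 averaged 14.7 CPM in F, 33.7 in 2d-U, 26.2 in 5d-U and 77.8 in 2+3d-C, and Calcr 33.8, 0.050, 0.45 and 50.8. F replicates 4 and 5 and 5d-U replicates 1 and 6 held over 0.5 reads per kb on olfactory, vomeronasal and taste receptor genes (3.86 to 7.25 in 3 of them and 0.636 in 5d-U replicate 6), against at most 0.231 in the other 8 libraries. 5d-U replicate 1 also had 5.85% of its reads on mitochondrial genes, against 0.0681% to 1.15% elsewhere. Levels are given as RPKM, which is CPM after scaling of the libraries divided by the kb of exon, and changes as log2 fold changes.

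Actin is a globular protein that assembles into filaments, and its isoforms differ by a few residues and by the cells that make them. Actb and Actg1 encode the cytoplasmic isoforms of nearly all cells, Acta1 and Actc1 the skeletal and cardiac isoforms of the sarcomere, and Acta2 and Actg2 the vascular and enteric smooth muscle isoforms. Actc1 and Acta2 are also made for a time by myoblasts that begin to differentiate. Filamins are long, flexible proteins that crosslink actin filaments and tie them to membrane receptors, Flna in most cells and Flnc mainly in striated muscle, where it sits at the Z-disc. Many of these genes are read under the control of serum response factor (SRF), which binds the CArG box and whose cofactors of the MRTF family are held back by free actin monomers.

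Because of that shared control, the 250 bases before the start site were searched for the box, written as CC, 6 bases that are each A or T, and GG, a motif that reads alike on both strands, and for a near box with 1 G or C among the 6. RefSeq promoters (GRCm38.p6) were at hand for 6 of the 8 genes. Those of Actb and Actg2 were missing and were not searched. An exact box was found before Actg1 (its first base 90 upstream), Acta1 (73) and Actc1 (47). Near boxes were found before Acta1 (205 and 154), Actc1 (175, 138 and 87), Acta2 (84 and 34) and Flnc (163). No box of either kind lay before Flna or before a second listed start site of Flnc, further downstream. The start site used for Flna lay 3286 bases inside the gene as counted, so the bases before its outermost start were not searched. That of Actc1 lay 673 bases inside. For Flnc, the second site is the start of the gene as counted, and the site with the box lies 103 bases upstream of it. Of all 32851 promoters of that length, 1.47% hold an exact box and 8.59% an exact or near one. The printed stretches show these boxes, in capitals, for the genes whose levels are then described. Bases that lie on an exon of the gene itself in the authors' annotation were left out, and for Acta2, whose window is mostly such an exon, only the bases around each box are given.
Actg1, chr11:120348543-120348745, minus strand: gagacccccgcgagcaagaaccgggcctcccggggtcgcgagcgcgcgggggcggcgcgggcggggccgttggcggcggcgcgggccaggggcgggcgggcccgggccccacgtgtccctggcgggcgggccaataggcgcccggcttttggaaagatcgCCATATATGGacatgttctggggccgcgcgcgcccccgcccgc
Acta1, chr8:123894776-123895025, minus strand: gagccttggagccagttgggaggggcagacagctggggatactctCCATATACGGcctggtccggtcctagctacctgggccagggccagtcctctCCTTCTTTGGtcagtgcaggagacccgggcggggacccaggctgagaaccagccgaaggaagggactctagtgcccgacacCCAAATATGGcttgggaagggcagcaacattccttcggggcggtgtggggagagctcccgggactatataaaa
Actc1, chr2:114052888-114053125, minus strand: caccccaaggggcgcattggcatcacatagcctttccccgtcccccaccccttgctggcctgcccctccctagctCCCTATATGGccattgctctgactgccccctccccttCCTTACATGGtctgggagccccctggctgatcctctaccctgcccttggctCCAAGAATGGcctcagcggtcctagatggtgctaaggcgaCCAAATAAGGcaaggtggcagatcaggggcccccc
Acta2, chr19:34255438-34255467, minus strand: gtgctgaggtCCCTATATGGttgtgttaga
Acta2, chr19:34255388-34255417, minus strand: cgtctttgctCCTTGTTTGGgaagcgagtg
Flnc, chr6:29432903-29433152, plus strand: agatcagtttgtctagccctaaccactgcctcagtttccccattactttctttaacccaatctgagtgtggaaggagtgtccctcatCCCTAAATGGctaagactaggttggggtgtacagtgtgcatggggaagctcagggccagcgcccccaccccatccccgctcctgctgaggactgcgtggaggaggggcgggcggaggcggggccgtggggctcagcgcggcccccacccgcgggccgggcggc
A box in these windows is a match of letters and not a site shown to be bound.

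Flnc changed in every comparison with the compressed cells. It was higher in 2+3d-C than in each of the other groups, 80.4-fold over 5d-U, 88.4-fold over 2d-U and 8.62-fold over F, while Flna, its relative, passed no test in any comparison. Actb, Acta1 and Actc1 were lower under compression than in 5d-U, and Actg2 had no read. In the comparison with 5d-U, 5 of the 8 genes passed at an adjusted p-value under 0.05 (22.6% of all tested genes did), against 2d-U 1 (24.6%), and against F 1 (6.4%). Leaving out 1 library gave 2 (without 5d-U replicate 6) to 6 genes (without F replicate 1) against 5d-U and 1 to 2 against 2d-U. Against F it gave 0 (without F replicate 4, and also without F replicate 5) to 5 (without F replicate 1). The calls over all tested genes moved too. In the fits named, 3021 and 6205 passed against 5d-U (5110 with all libraries) and 255, 309 and 3616 against F (1449). Between 5d-U and 2d-U, 2 genes were higher (1.87% of all tested genes, beside 0.243% lower). From F to 2d-U, 4 were lower (33.3%), and between 5d-U and F 1 was higher (11.6%) and 1 lower (8.9%). The libraries of the groups did not overlap for 5 genes in 2+3d-C and 5d-U (42.4% of all tested genes), for 3 in 2+3d-C and 2d-U (35.6%), for 3 in 2+3d-C and F (27.1%), for 4 in 5d-U and 2d-U (37.1%), for 3 in 2d-U and F (52.5%) and for 2 in 5d-U and F (44.2%). The median log2 fold change of all tested genes was -1.05 against 5d-U, 0 against 2d-U and -0.76 against F. It was 1.13 in 5d-U against 2d-U, -1.63 in 2d-U against F and -0.41 in 5d-U against F. With only the 10766 genes that averaged 5 CPM or more fitted, the first 3 medians were 0.0087, 0.24 and -0.066. The latter 3 were 0.34, -0.205 and -0.062. The shifts against 5d-U and F thus lay largely in genes below 5 CPM, where of the 8 genes only Actg2 stands (at most 4.40 CPM in a library).

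**Figure D1:**
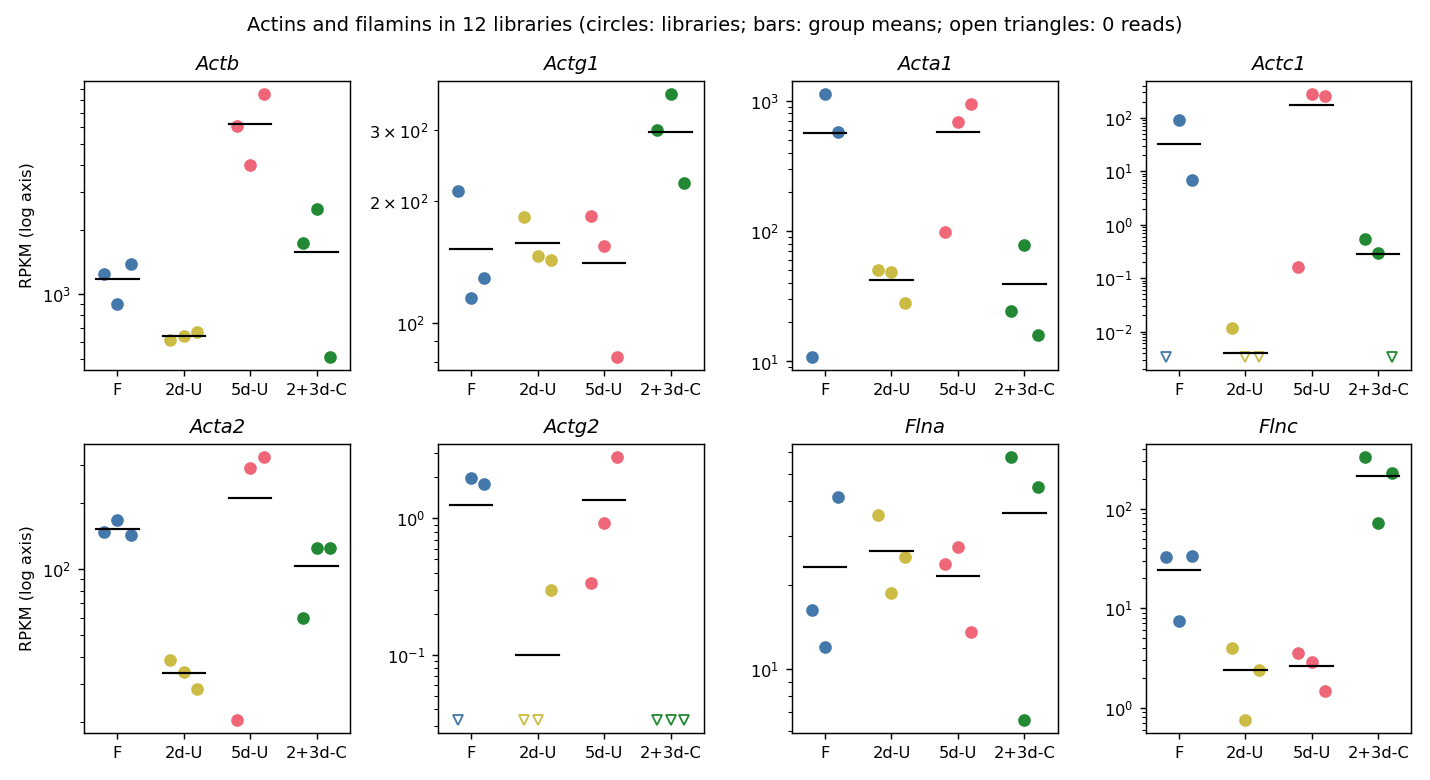
RPKM of each gene on a log axis in the 4 groups, with 1 circle per library, a bar for the mean of 3 libraries and an open triangle, set at the foot of the axis, for a library with 0 reads. Flnc is higher in the 3 compressed libraries (72.2 to 331) than in any other, Actb is higher in the 3 of 5d-U (3987 to 8533) than in any other, and Actg2 has no read under compression.

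Actb, on chromosome 5 (mm10, 142903115 to 142906754, minus strand), was the highest of the actins in 11 of the 12 libraries. In F it stood at 1247, 902 and 1392 RPKM, in 2d-U at 614, 639 and 669, in 5d-U at 6044, 3987 and 8533, and in 2+3d-C at 1731, 2487 and 511. The 5d-U libraries lay above all others, and 2+3d-C, which held both the lowest value of all and a value above every F library, overlapped with F and with 2d-U. Compression left Actb 3.92-fold below 5d-U (log2 fold change -1.97, SE 0.51, edgeR adjusted p = 0.0134) and lower in all 3 libraries. It rose 9.66-fold from 2d-U to 5d-U (3.27, SE 0.54, adjusted p = 0.0133), where only 2.12% of all tested genes passed, and was 5.24-fold higher in 5d-U than in F (2.39, SE 0.52, adjusted p = 0.00449), where 20.5% did. Against 2d-U the 2+3d-C value was 1.30 (SE 0.50, adjusted p = 0.0732) and against F 0.42 (SE 0.50, adjusted p = 0.586), so neither passed. The fall against 5d-U was not called with the replicate number as a block (-1.23, SE 1.25, adjusted p = 0.519), with a term for the libraries that had reads on silent receptor genes (-1.71, adjusted p = 0.0830) or with the 2 groups fitted alone (-1.80, adjusted p = 0.0510). 2+3d-C and 5d-U share no replicate number, so the block compares them only through F. The cultures without compression share only number 1 with F. The rise from 2d-U was not called with that term (3.01, adjusted p = 0.0799), nor was the value against F with the block (2.12, adjusted p = 0.264). The value against 2d-U passed without 2+3d-C replicate 10 (1.63, adjusted p = 0.0220). The fall against 5d-U had an adjusted p of 0.0623 without 5d-U replicate 6, and the rise from 2d-U to 5d-U one of 0.0586 to 0.0651 without any 1 of the 2d-U libraries. With the 4 libraries that had reads on silent receptor genes left out together, the fall was -1.34 (adjusted p = 0.351), the rise 2.64 (adjusted p = 0.532) and the 5d-U value against F 1.68 (adjusted p = 0.486).

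Actb is often used as a reference gene in PCR, and in these libraries its level ranged 16.7-fold, from 511 RPKM in 2+3d-C replicate 10 to 8533 in 5d-U replicate 6. It took 0.128% of the reads of the former library and 1.53% of those of the latter, and ranked 65 and 4 among all genes by RPKM. The log2 range of its group means, 3.20, was larger than in 72.8% of the 9082 genes that averaged 10 CPM or more.

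Actg1 (chromosome 11, 120345690 to 120348542, minus strand), the other cytoplasmic isoform, varied far less than Actb. It stood at 211, 115 and 129 RPKM in F, at 183, 146 and 142 in 2d-U, at 184, 155 and 82.2 in 5d-U, and at 299, 367 and 222 in 2+3d-C. The lowest compressed library stood above the highest of the other 9. None of the 3 differences passed the test, however, with 1.08 against 5d-U (SE 0.41, edgeR adjusted p = 0.0674), 0.92 against 2d-U (SE 0.40, adjusted p = 0.111) and 0.96 against F (SE 0.40, adjusted p = 0.115). Without F replicate 1, which is in neither group, the first of these had an adjusted p of 0.0335. That against F passed without the same library (1.49, adjusted p = 0.0368). Among the other groups the log2 fold changes were -0.16 (5d-U against 2d-U), 0.05 (2d-U against F) and -0.11 (5d-U against F), less than the SE of 0.40, and their libraries overlapped.

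Reads on Actg1 are the least certain of the set. Of the 75-base stretches of its main transcript, 54.5% also occur in transcripts of 10 other genes, among them the pseudogene Actg-ps1, and the authors did not count reads that map to more than 1 place. The corresponding share was 2.60% in Actb, 0.437% in Acta1 and 0 in the other 5 genes. The level of Actg1 is therefore understated relative to the other actins, while its comparison between groups uses the same stretches in every library. Of its exon bases, 5.53% lie on exons of Gm23419 and Mir6935, on the same strand.

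The balance of the cytoplasmic isoforms differed between groups. Actb exceeded Actg1 by 25.8- to 104-fold in RPKM in 5d-U, by 5.90- to 10.8-fold in F, by 3.36- to 4.70-fold in 2d-U and by 2.31- to 6.78-fold in 2+3d-C. The 5d-U libraries stood apart from the other 9, and the 2+3d-C range held the whole 2d-U range. These ratios were set side by side after the levels had been seen and were not tested.

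Among the sarcomeric actins, Acta1 (chromosome 8, 123891769 to 123894751, minus strand) was split within groups. It stood at 10.8, 1122 and 573 RPKM in F, at 50.5, 48.5 and 27.9 in 2d-U, at 98.6, 685 and 947 in 5d-U, and at 24.3, 77.6 and 15.9 in 2+3d-C. F replicate 1 had the lowest level of all libraries and F replicate 4 the highest, and 5d-U replicate 1 was well below the other 5d-U libraries. Acta1 was 14.7-fold lower under compression than in 5d-U (log2 fold change -3.88, SE 1.16, edgeR adjusted p = 0.0275), with no overlap of the libraries. That adjusted p rose to 0.0552 and 0.0879 without 5d-U replicate 2 or 6 and to 0.0856 and 0.0811 without 2+3d-C replicate 4 or 10. Between 2d-U and F, where 43.8% of all tested genes passed, Acta1 was 13.4-fold lower in 2d-U (-3.75, SE 1.16, adjusted p = 0.0226) although F replicate 1 lay below every 2d-U library, and the adjusted p was 0.0777 without F replicate 4 and 0.0572 to 0.0714 without any 1 of the 2d-U libraries. 2+3d-C and 2d-U overlapped (-0.11, SE 1.04, adjusted p = 1). The value against F, -3.86 (SE 1.16, adjusted p = 0.0587), passed without F replicate 1 (0.0139) or 5d-U replicate 1 (0.0477), and the 5d-U value against 2d-U, 3.77 (SE 1.16, adjusted p = 0.0873), without F replicate 1 (0.0431). With the 4 libraries that had reads on silent receptor genes left out, the fall against 5d-U was -4.13 (adjusted p = 0.0226), while the 2d-U value against F turned to 1.97 (adjusted p = 0.235), F replicate 1 being the one F library left. With a term for those libraries, neither was called (-3.17, adjusted p = 0.0930, and -2.27, adjusted p = 0.417), and with the replicate block the 2d-U value against F was 1.68 (adjusted p = 0.250).

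Actc1 (chromosome 2, 114047282 to 114053548, minus strand) ranged from no read to 277 RPKM. It stood at 0, 91.2 and 6.76 RPKM in F, at 0.161, 277 and 254 at 5 days and at 0.545, 0.299 and 0 under compression. The reads behind the latter groups were 6, 12862 and 8395, and 47, 4 and 0. In 2d-U it had 1, 0 and 0 reads. Set against 3 reads in each 2d-U library, the mean of 5d-U was at least 3572-fold higher and that of F at least 659-fold higher (edgeR adjusted p = 0.0361 and 0.00851). Without any 1 of the 2d-U libraries, the first of these tests had an adjusted p of 0.116 to 0.133, and without 5d-U replicate 6 one of 0.0967. It was also not called with a term for the libraries with reads on silent receptor genes (adjusted p = 0.119), with reads at the level of silent genes subtracted (0.0596) or without TMM scaling (0.0635). The bound for F rests on F replicate 4, without which it is at least 68.1-fold, and the bound for 5d-U is 2561- to 5356-fold without 1 of its libraries. The 2d-U value against F was not called with the replicate block (adjusted p = 1) or with the term (adjusted p = 0.104), and with the 4 libraries left out it turned to 1.61 (adjusted p = 0.971), F replicate 1 having no read. Actc1 was lower under compression than in 5d-U (-9.20, SE 2.48, adjusted p = 0.0159), but 5d-U replicate 1 lay below 2 of the 3 compressed libraries, and the adjusted p was 0.0504 without 2+3d-C replicate 5. The 2+3d-C value against F, -6.76 (SE 2.25), had an adjusted p of 0.078, and of 0.0372 and 0.0413 without F replicate 1 or 5d-U replicate 1.

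Within F and 5d-U the sarcomeric actins were high in the libraries that were high in markers of differentiating muscle, whereas between 2+3d-C and 2d-U the marker sums were higher without a call for Acta1. The summed CPM of 12 myocyte markers, among them Myog, Mymk, Tnnt1 and Myh3, was 28.2, 1271 and 413 in F, 8.27 to 18.0 at 2 days, 172, 2151 and 5372 at 5 days, and 52.9 to 150.0 under compression. Of the 12, 9 fell under compression relative to 5d-U and none rose (13.4% and 9.14% of all tested genes). In every compressed library 6 had 3 or fewer reads. The sum over 10 markers of mature myofibers was 88.8, 1222 and 1110 in F, 55.9 to 82.6 at 2 days, 31.0, 1052 and 2225 at 5 days, and 107 to 168 under compression. Both sums were higher in every compressed library than in every 2d-U library. Of the markers, 3 myocyte and 5 myofiber ones were called higher and none lower (16% and 8.63% of all tested genes). Acta1 did not pass (-0.11, edgeR adjusted p = 1) and Actc1 had 0 to 47 reads. F replicate 1 and 5d-U replicate 1 were thus the lowest of their groups in both lists, as they were in Acta1 and Actc1. In these bulk libraries, fewer differentiating cells and less actin RNA per cell cannot be told apart.

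**Figure D2:**
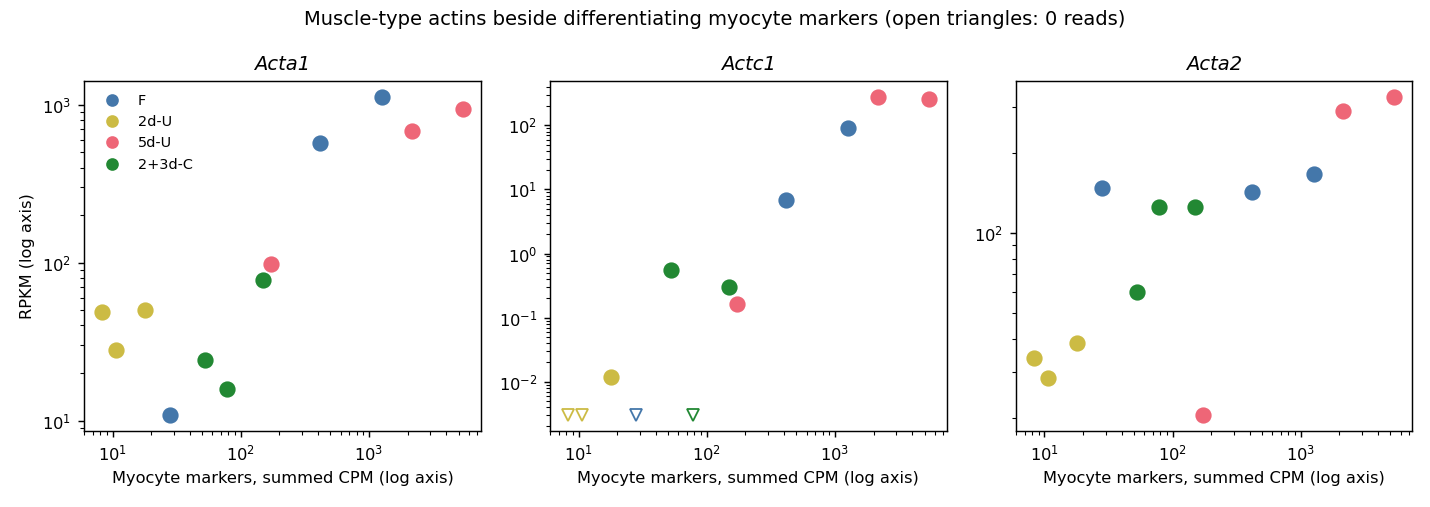
RPKM of Acta1, Actc1 and Acta2 against the summed CPM of 12 markers of differentiating myocytes, both on log axes, with 1 point per library and open triangles for 0 reads. The libraries with the highest marker sums (1271 to 5372) are among the highest in all 3 genes, and Acta2 keeps 143 to 168 RPKM in the F libraries whether the sum is 28.2 or 1271.

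Acta2 (chromosome 19, 34241090 to 34255590, minus strand), the smooth muscle isoform, was even in F and uneven in 5d-U. Its RPKM were 148, 168 and 143 in F, 38.6, 33.8 and 28.5 at 2 days, 20.6, 289 and 326 at 5 days, and 60.2, 125 and 126 under compression. The 2+3d-C libraries lay above every 2d-U library and below every F library, and 5d-U replicate 1 was the lowest of all 12. Acta2 was 4.54-fold lower in 2d-U than in F (log2 fold change -2.18, SE 0.69, edgeR adjusted p = 0.0243), though not without F replicate 4 (adjusted p = 0.0527) or any 1 of the 2d-U libraries (0.0577 to 0.0749). The 3.08-fold higher level in 2+3d-C than in 2d-U did not pass (1.62, SE 0.67, adjusted p = 0.0919), but had an adjusted p of 0.00768 without 5d-U replicate 1, which is in neither group and adds to the common estimate of the spread. Against 5d-U the value was -1.03 (SE 0.66, adjusted p = 0.228), and the 5d-U range took in that of 2+3d-C. Without 5d-U replicate 1 it was -1.57 (adjusted p = 0.0157), and the 5d-U value against 2d-U, 2.65 (SE 0.70, adjusted p = 0.0601), became 3.19 (adjusted p = 0.0040).

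Acta2 also marks pericytes and smooth muscle, and other markers of these cells moved with it in part. The summed CPM of 10 of them, without Acta2, was 506 to 861 in F, 1.29 to 4.08 at 2 days, 11.1 to 22.5 at 5 days, and 106 to 173 under compression, and each of the 10 had over 3 reads in at least 1 library of F, 5d-U and 2+3d-C, whereas 6 had 3 or fewer in every 2d-U library. Myh11, the smooth muscle myosin, averaged 175 CPM in F, 0 in 2d-U, 1.02 in 5d-U and 53.5 in 2+3d-C. Of the 10, 7 rose under compression relative to 2d-U and 5 relative to 5d-U, and none fell. Of all tested genes, 16% rose in the former comparison and 9.14% in the latter. In 5d-U replicates 2 and 6 Acta2 was at its highest while the sum of these markers stayed at 11.1 and 21.1 CPM. The part of such cells in the Acta2 level of F and 2+3d-C was not tested.

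Actg2 (chromosome 6, 83512905 to 83536265, minus strand), the enteric smooth muscle isoform, was near the limit of detection. It had 0, 96 and 110 reads in F, 0, 0 and 21 at 2 days, 12, 41 and 90 at 5 days, and 0, 0 and 0 under compression. At most this came to 2.83 RPKM, in 5d-U replicate 6. Set against 3 reads in each compressed library, the mean of 5d-U was at least 11.4-fold higher than that of 2+3d-C (edgeR adjusted p = 0.0462), and that of F at least 10.6-fold higher (adjusted p = 0.0825). The first of these passed only just, and its adjusted p was 0.0637 to 0.122 when any 1 of 7 libraries was left out (F replicates 4 and 5, 5d-U replicates 2 and 6, and each of 2+3d-C). Of the 6 libraries with a read on Actg2, 4 are those with reads on silent receptor genes. With those 4 libraries left out the adjusted p against 5d-U was 0.275, and with a term for them 0.113. It was 0.0516 with reads at the level of silent genes subtracted and 0.0510 without TMM scaling. The bound against 5d-U is 5.27-fold without 5d-U replicate 6. The value against F passed without F replicate 1 (adjusted p = 0.0438), and that of 2d-U against F, -3.60 (SE 2.09, adjusted p = 0.169), without 2d-U replicate 3 (0.0499).

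**Figure D3:**
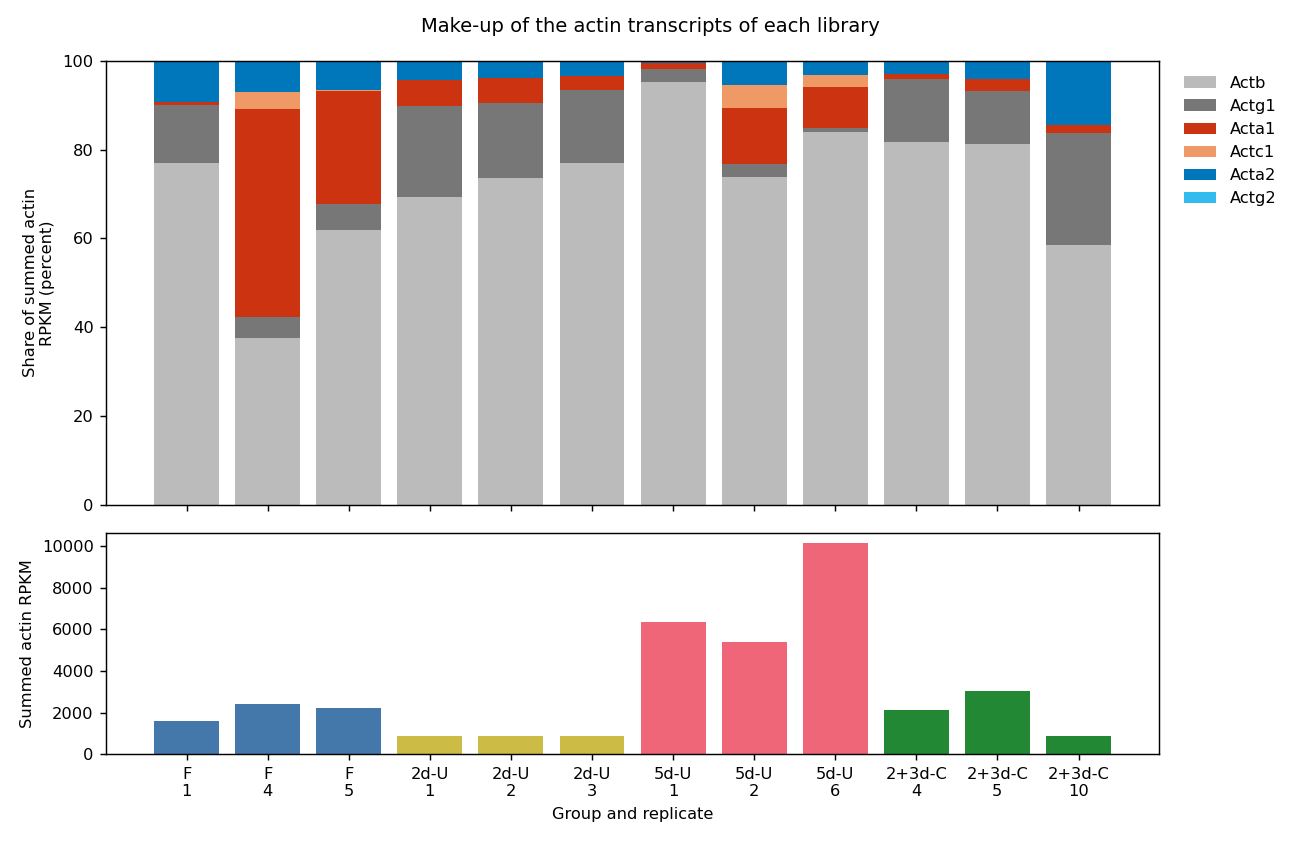
Stacked bars give the share of each isoform in the summed RPKM of the 6 actins in every library (upper panel, percent), and bars below give that sum (RPKM). Cytoplasmic isoforms make up most of the sum except in F replicate 4, and the sum is highest in the 3 libraries of 5d-U.

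Summed over the 6 isoforms, actin RPKM came to 2088 ± 415 in F, 874 ± 10.2 in 2d-U, 7295 ± 2513 in 5d-U and 2016 ± 1094 in 2+3d-C (mean ± SD, n = 3 each). The 5d-U libraries, with 1.29% to 1.85% of all their reads on actins, lay above the other 9. Most of this sum was Actb, which made up 73.9% to 95.2% of it in 5d-U and 58.5% to 81.8% in 2+3d-C. Actg1 made up 0.81% to 2.89% in 5d-U, against 12% to 25.4% in 2+3d-C and 16.4% to 20.6% in 2d-U. The 4 muscle-type isoforms together took 33.2% ± 23.9 in F, 8.70% ± 1.90 in 2d-U, 13.4% ± 10.8 in 5d-U and 8.95% ± 6.4 in 2+3d-C. An exact permutation test over all 15400 divisions of the libraries into 4 groups of 3 of the sum of squares between groups gave p = 0.110 for this share. Within F it ran from 9.83% to 57.6%, a wider spread than that between the group means.

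Flna (chromosome X, 74223461 to 74249820, minus strand), the widely expressed filamin, had group means between 21.6 and 36.4 RPKM. Its RPKM were 16.3, 11.97 and 41.6 in F, 35.8, 18.8 and 25.3 at 2 days, 23.8, 27.6 and 13.5 at 5 days, and 57.8, 6.58 and 44.9 under compression. The compressed libraries held both the highest and the lowest values of all 12. The log2 fold changes of 2+3d-C were 0.75 against 5d-U (SE 0.65), 0.45 against 2d-U (SE 0.65) and 0.65 against F (SE 0.65), with edgeR adjusted p of 0.372, 0.712 and 0.511. The log2 range of its group means, 0.36, was larger than that of only 0.716% of those 9082 genes.

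Flnc (chromosome 6, 29433256 to 29461883, plus strand), the muscle filamin, set the compressed libraries apart. It stood at 32.6, 7.46 and 33.1 RPKM in F, at 3.98, 0.754 and 2.39 in 2d-U, at 3.54, 2.85 and 1.45 in 5d-U, and at 331, 72.2 and 228 in 2+3d-C. These are 5621 to 165965 reads in the compressed libraries and 181 to 1982 in the cultures without compression. No compressed library overlapped with any other, the F libraries lay between, and 2d-U and 5d-U overlapped. Flnc was higher under compression than in 5d-U (log2 fold change 6.33, SE 0.86, edgeR adjusted p = 0.000184) and than in 2d-U (6.47, SE 0.86, adjusted p = 0.000134). Leaving out any 1 library kept the first value between 5.83 and 6.84 and the second between 5.85 and 7.06, all with an adjusted p under 0.05. The lower ends were reached without 2+3d-C replicate 4, the library with the highest level. With the 4 libraries that had reads on silent receptor genes left out, the values were 6.20 (adjusted p = 0.0472) and 6.47 (adjusted p = 0.00259).

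The order of Flnc among the groups was 2+3d-C, F, and then 5d-U and 2d-U together. It fell 10.3-fold from F to 2d-U (-3.36, SE 0.74, edgeR adjusted p = 0.00431), was 9.32-fold lower in 5d-U than in F (-3.22, SE 0.74, adjusted p = 0.00622), and did not pass between 5d-U and 2d-U (0.14, SE 0.68, adjusted p = 0.919). The 8.62-fold higher level in 2+3d-C than in F (3.11, SE 0.74, adjusted p = 0.0284) is less firm, since its adjusted p was 0.0957 without F replicate 4 and 0.0699 without F replicate 5, and without all 4 libraries with reads on silent receptor genes the value was 2.69 (adjusted p = 0.559). It was also not called with a term for those libraries (2.84, adjusted p = 0.128), with the 2 groups fitted alone (3.11, adjusted p = 0.0583) or without TMM scaling (2.74, adjusted p = 0.0518). With the replicate block, 5d-U against F was -2.59 (adjusted p = 0.102). The fit without the 4 libraries gave -3.78 (adjusted p = 0.039) for 2d-U and -3.51 (adjusted p = 0.271) for 5d-U against F. By rank among all genes, Flnc stood at 126, 1159 and 196 in 2+3d-C, at 1609, 4678 and 1142 in F, and at 6593 to 10004 in the cultures without compression.

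**Figure D4:**
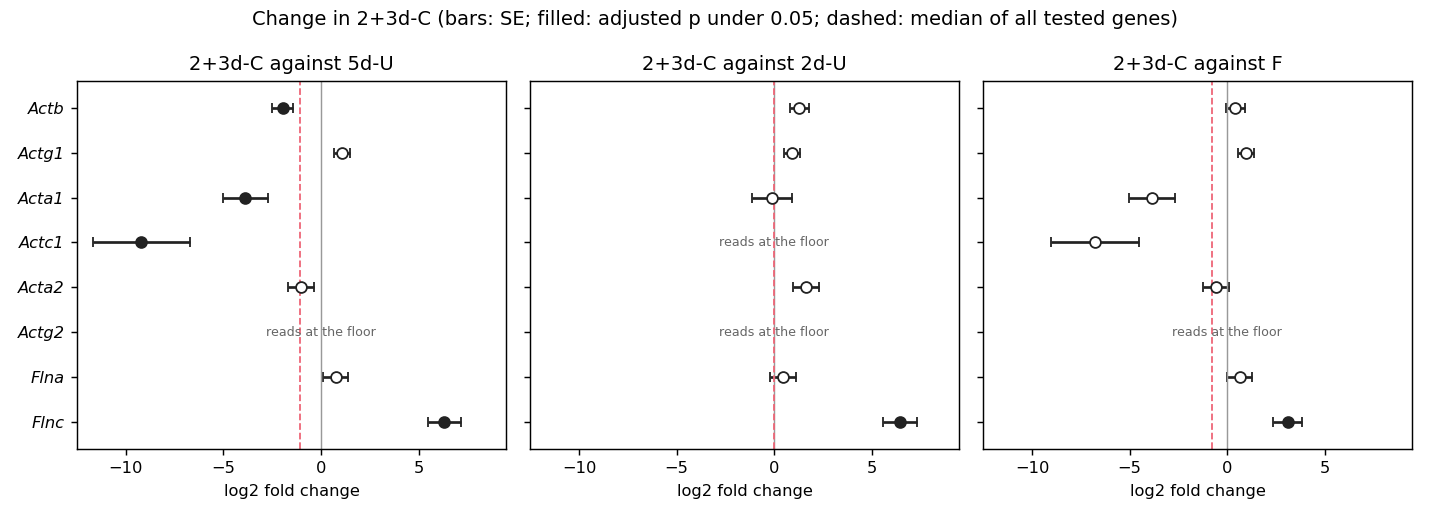
Log2 fold change of each gene in 2+3d-C against 5d-U, 2d-U and F, with its SE as a bar, filled where the edgeR adjusted p is under 0.05, and a dashed line at the median of all tested genes (-1.05, 0 and -0.76). For genes that averaged 5 CPM or more these medians were 0.0087, 0.24 and -0.066. Flnc is the one gene filled in all 3 panels (6.33, 6.47 and 3.11), and genes with 3 or fewer reads in every library of 1 group carry no point.

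Per kb of exon the balance of the filamins turned over. Flnc made up 66.7%, 38.4% and 44.3% of the summed RPKM of Flna and Flnc in F, 10.0%, 3.85% and 8.63% at 2 days, 13.0%, 9.39% and 9.68% at 5 days, and 85.1%, 91.7% and 83.5% under compression. The group means were 49.8% ± 14.9, 7.50% ± 3.23, 10.7% ± 2.00 and 86.8% ± 4.30 (SD, n = 3). The shares differed between the 4 groups in an exact permutation test (p = 0.000195, where 6.49e-05 is the smallest p that the 15400 divisions allow). With 3 libraries against 3, a test of 2 groups cannot go below 0.1, so single pairs were not tested. 2+3d-C replicate 5, the lowest of the 3 compressed libraries in both filamins, had the highest share of Flnc of all libraries.

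**Figure D5:**
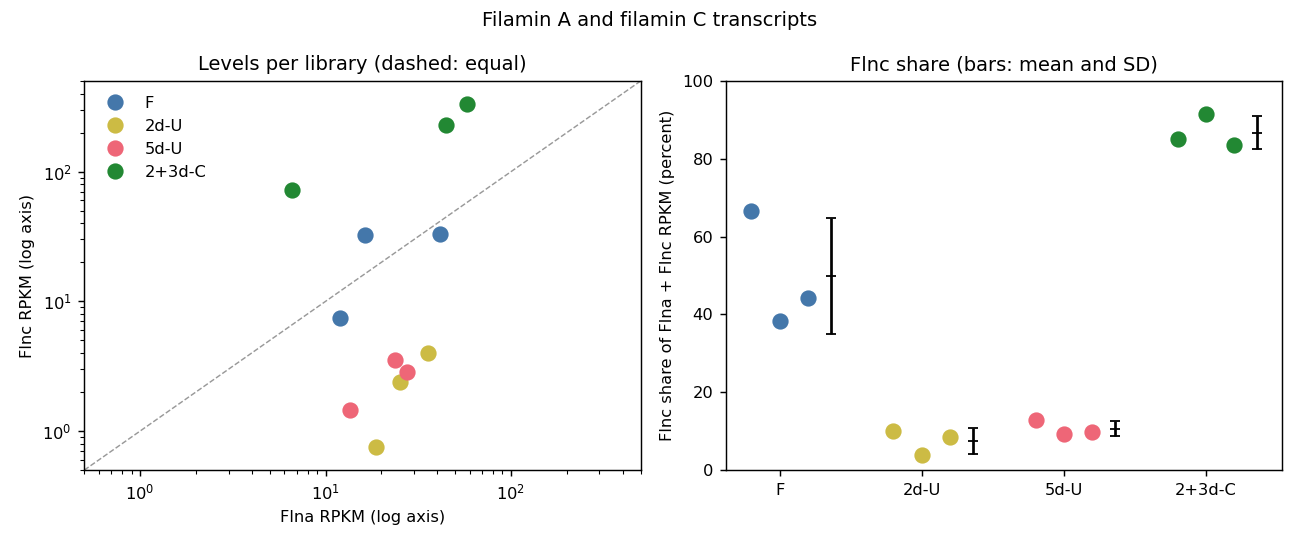
Left, Flnc against Flna RPKM in each library, on log axes, with a dashed line at equal levels. Right, the share of Flnc in the sum of both, in percent, with 1 point per library and the mean and SD of each group. The 3 compressed libraries lie above the line (83.5% to 91.7%), and the 6 of 2d-U and 5d-U lie below it (3.85% to 13.0%).

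Markers of cell types other than MuSCs were measured beside Flnc. The summed CPM of endothelial, fibroadipogenic, pericyte and smooth muscle, and glial markers were each lower in all 3 libraries of 2+3d-C than in all 3 of F, while Flnc was higher in all 3. For endothelial markers, for example, the sum was 231 to 313 in 2+3d-C and 1050 to 1607 in F, and for fibroadipogenic markers 512 to 978 and 2219 to 7844. All 4 sums were higher under compression than in 2d-U and 5d-U, where those of the endothelial and fibroadipogenic lists were at most 57.2, so they moved with Flnc in those comparisons, and their part in them was not tested. The immune sum, at 0.274 to 106 in 2+3d-C, was below that of F (243 to 1913) and overlapped with those of 2d-U and 5d-U. Markers of differentiating myocytes and mature myofibers, in which Flnc is also made, were higher with Flnc in every compressed library (52.9 to 150.0 and 107 to 168) than in every 2d-U library (8.27 to 18.0 and 55.9 to 82.6). Against 5d-U they were lower than in replicates 2 and 6 (2151 and 5372, and 1052 and 2225), where Flnc stood at 2.85 and 1.45 RPKM. 5d-U replicate 1, with Flnc at 3.54 RPKM, had a myocyte sum of 172, above the compressed libraries, and a myofiber sum of 31.0, below them. The part of these cells in the Flnc level was not tested.

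The genes whose log2 CPM followed each member most closely over the 12 libraries were sought among those that averaged 10 CPM or more. The libraries share their group, so these correlations hold the group pattern together with the spread of libraries within groups. These parts were not separated. Closest to Flnc were Rbms3 (Pearson r = 0.983), which encodes an RNA-binding protein, Slc39a14 (0.980), a zinc and iron importer, and Por (0.972), the electron donor of the cytochrome P450 enzymes. All 3 were highest in 2+3d-C, for example Por at 329 to 438 RPKM against 80.3 to 145 in F and 22.1 to 40.7 in the other cultures. Closest to Actc1 were Tnnt3 (0.952), Mylpf (0.946) and Trim54 (0.942), which are fast troponin T, a fast myosin light chain and a titin-binding ubiquitin ligase, and closest to Acta1 were Hspb6 (0.939), Tnnt3 (0.934) and Actc1 (0.916). Acta2 came closest to Pdlim3 (0.929) and Myl1 (0.925), also muscle genes, and Actg2 to Hspb6 (0.904). Actb (Atp5g3, 0.890), Actg1 (Ppp2r2a, 0.965) and Flna (Fasn, 0.963) were closest to genes that are not specific to muscle. Flna and Fasn both ranged widely within 2+3d-C, from 6.58 to 57.8 and from 1.13 to 14.2 RPKM. Among the members themselves, r was -0.16 for Actb and Actg1 and 0.29 for Flna and Flnc.

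The other 148 genes of actin biology that were listed moved both ways. Against 5d-U, 24 were higher and 19 lower in 2+3d-C, beside 9.14% and 13.4% of all tested genes. Against 2d-U, 41 were higher and 13 lower (16% and 8.63% of all tested genes), and against F 1 was higher and 12 lower (1.94% and 4.47%). Leaving out 1 library gave 25 (without 5d-U replicate 6) to 52 calls against 5d-U and 36 to 55 against 2d-U. Against F it gave 0 (without F replicate 4, and also without F replicate 5) to 23 (without F replicate 1). Over all tested genes, 3021 passed against 5d-U without 5d-U replicate 6. Against F, 255, 309 and 3616 passed without F replicates 4, 5 and 1. The median log2 fold changes of the 148 genes were -0.11, 0.66 and -0.32.

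Genes that crosslink actin or anchor it to the membrane, and genes of non-muscle myosin II and its GTPase regulators, were those with more rises than falls against 5d-U. Of 26 crosslinkers and anchors, 10 were higher and 1 lower (median 0.96), beside 9.14% and 13.4% of all tested genes. Dmd, which encodes dystrophin, rose 4.24 on the log2 scale (SE 0.84, edgeR adjusted p = 0.00261) with 0.0689 to 0.619 RPKM at 5 days and 3.36 to 7.63 under compression, and stood at 1.56 to 4.45 in F. Palld (palladin, an actin-bundling scaffold) and Add3 (an adducin that caps filaments at the spectrin lattice) rose by 2.12 and 3.15. Both were higher than in 2d-U too (3.07 and 2.04). Msn (moesin, a membrane linker) and Zyx (zyxin, of focal adhesions) were higher than in 5d-U by 1.84 and 1.25. From their 2d-U levels these 2 genes moved little under compression (0.046, SE 0.46, and 0.22, SE 0.32). Every 5d-U library lay below every 2d-U library in both, without a call (-1.80, edgeR adjusted p = 0.0607, and -1.03, adjusted p = 0.0926). Zyx was also the 1 listed gene higher than in F (1.36, adjusted p = 0.0303). Of 21 genes of myosin II and its regulators, 7 were higher and none lower (median 1.00). Rnd1 and Rnd3, small GTPases that oppose RhoA, rose by 5.16 and 4.03, and Rock2, a RhoA-activated kinase, by 1.92. Rnd3 stood at 303 to 323 RPKM under compression, 12.3 to 29.3 at 5 days, 6.61 to 10.5 at 2 days and 71.7 to 247 in F.

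Genes that bind actin monomers or start filaments moved both ways. Of 30 genes of monomer binding and filament turnover, 3 rose and 4 fell under compression relative to 5d-U (median -0.65). These parts are close to those of all tested genes (9.14% and 13.4%). Pfn1, profilin, which feeds monomers to growing ends, fell by 2.58 (SE 0.65, edgeR adjusted p = 0.0116), and Tmsb10, a thymosin that sequesters monomers, by 3.80 (adjusted p = 0.00192). Pfn1 stood at 876 to 5708 RPKM at 5 days, 209 to 807 under compression and 122 to 250 in F, and at 1515 to 1719 in 2d-U, where Actb was low. Gsn, gelsolin, which severs filaments, rose by 4.67 (adjusted p = 0.000365), to 455 to 1116 RPKM, beside 780 to 7404 in F. Gsn is also abundant in fibroadipogenic cells, whose markers moved in the same direction, and their part in it was not tested. Of 28 nucleators 1 was higher and 4 were lower, and Diaph3, a formin, was at 0 to 0.0943 RPKM in 2+3d-C against 2.21 to 3.53 in 5d-U.

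Tropomyosins and calponins, which line the filament, gave 1 rise and 4 falls among 11 genes against 5d-U, with a median of 0.32. Of all tested genes, 9.14% rose and 13.4% fell. Tpm1 fell by 3.97 (SE 0.56, edgeR adjusted p = 0.000235) and was also lower than in 2d-U by 3.42 (adjusted p = 0.000488), at 15.6 to 44.2 RPKM under compression, 246 to 518 at 5 days, 267 to 299.5 at 2 days and 42.5 to 123 in F. Tpm2, with 24.7 to 510 RPKM in 5d-U, overlapped with 2+3d-C (16.8 to 39.7). Cnn3, the most abundant calponin, did not pass (0.40, adjusted p = 0.485).

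Among partners and chaperones of filamin, Bag3, like Flnc, was highest in 2+3d-C, lower in F and lowest in the cultures without compression. Bag3, a cochaperone that clears damaged filamin, rose by 4.21 against 5d-U (SE 0.47, edgeR adjusted p = 4e-05) and by 3.82 against 2d-U (adjusted p = 5.93e-05). It stood at 326 to 399 RPKM in 2+3d-C, 107 to 281 in F, 13.0 to 26.7 in 5d-U and 22.5 to 29.8 in 2d-U, the last 2 overlapping, with the difference from F not past the test (0.85, adjusted p = 0.145). Cryab, a small heat shock protein, was higher than in 2d-U (4.31, adjusted p = 0.000673), and Hspb8, the small heat shock partner of Bag3, was lower than in 5d-U (-2.66, adjusted p = 0.0192) with overlapping libraries. Over the 22 genes of the list, 1 was higher and 5 were lower than in 5d-U, and 10 were higher and none lower than in 2d-U. Among all tested genes 9.14% were higher and 13.4% lower than in 5d-U, and 16% and 8.63% than in 2d-U. Itgb1, the integrin chain to which filamin binds, gave 0.37 against 5d-U (adjusted p = 0.561).

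The gene of SRF itself passed no test with the compressed cells. Srf stood at 8.43 to 19.0 RPKM under compression, 10.7 to 13.3 at 5 days, 23.0 to 27.7 at 2 days and 6.90 to 12.2 in F. In 2+3d-C its log2 fold changes were 0.33, -0.81 and 0.58 against 5d-U, 2d-U and F, with edgeR adjusted p of 0.553, 0.174 and 0.335. Elk4, an SRF cofactor of the ternary complex type, rose by 2.95 against 5d-U (adjusted p = 0.00141), and Fhl2, a LIM protein that binds SRF, fell by 3.43 (adjusted p = 0.0158). The 5 genes with an exact or near box in the windows searched had no common direction. Against 5d-U, Flnc rose, Acta1 and Actc1 fell, and Actg1 and Acta2 did not pass. Actb and Actg2, whose promoters were not searched, are not among them. The activity of the SRF protein was not measured, and its part in these changes was not tested.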

How the data were processed

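SMART-seq v4 libraries of FACS-sorted MuSCs were sequenced by the authors as 75-base single-end reads and run through an nf-core pipeline. The deposited values are raw read counts per gene from featureCounts on the mouse genome (mm10, GENCODE annotation), without strand and without reads that map to several places or overlap several genes. These counts were used as deposited. The 12 columns of the merged table held the same values as the files of single libraries.

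Counts were tested with edgeR 4.0.16 in R 4.3.3 (TMM scaling, filterByExpr by group, quasi-likelihood test, two-sided), in 1 fit of all 12 libraries over 22635 genes, with Benjamini-Hochberg adjustment and a threshold of 0.05. A prior count of 2 was added for log2 CPM, and RPKM used exon length after TMM scaling. A count of 3 reads was taken as the floor for fold changes against groups at or near 0. It covers counting error only. Depth was 12540745 to 62424851 reads on genes per library.

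The genes and the lists were chosen with earlier results of these data known. Named were the 8 genes, of each of 7 pathway lists the 3 most abundant genes and the 3 with the smallest p in 2+3d-C against 5d-U, the 3 genes most like each member, and marker genes. Deviations of libraries with the same replicate number correlated at -0.42 to 0.03, which cannot show that pairing is absent. Since the sources do not tie the numbers to batches of sorted cells, they were not taken as pairs. Alternatives were other scalings and filters, DESeq2 1.42.0, the 2 compared groups alone, a replicate block, corrections for reads on silent genes, and leaving out each library. The script was tested on simulated data.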

Additional observations from a re-analysis of the deposited data

How the results depend on the processing

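The rise of Flnc against 5d-U and 2d-U and its fall from F to 2d-U kept direction and call under every alternative run, with 5.83 to 6.84, 5.85 to 7.06 and -3.95 to -2.79 on the log2 scale when 1 library was left out. Of all changes of the 8 genes, alternatives beyond leaving out 1 library ended 26 calls, added 27 and turned the sign of 43, against 372 that kept both. Causes were not tested. The calls over all tested genes moved as well. Against 5d-U they were 5110 in the main fit, 7281 with DESeq2 and 3710 with the 2 groups alone. With a term for libraries with reads on silent receptor genes they were 3115. Against F the same 4 fits called 1449, 4153, 383 and 205. DESeq2 gave no adjusted p for Actc1, whose DESeq2 values are left out.

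Without TMM scaling, which moved the median of all tested genes to -1.21 against 5d-U and -1.24 against F, genes higher in 2+3d-C were 2537 of 5676 called against 2d-U (3619 of 5573 with TMM) and 142 of 1359 against F (438 of 1449). Between 5d-U and 2d-U this scaling called 1 of the 8 genes and 5 listed pathway genes. It turned Flna against 2d-U to -0.024, Actb against F to -0.15, Flnc in 5d-U against 2d-U to -0.17, and Acta1 and Actg2 in 5d-U against F to -0.55 and -0.53. Flnc against F became 2.74 (edgeR adjusted p = 0.0518).

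With no filter on low counts, 4 of the 8 genes were called against 2d-U, 4 against F and 4 between 5d-U and 2d-U, with 22 pathway genes against F and 29 between 5d-U and 2d-U. Flnc in 5d-U against 2d-U was -0.12, and Acta1 and Actg2 in 5d-U against F were -0.11 and -0.072. Genes of at least 5 CPM gave 8 pathway calls against F, -0.23 for Actg1 and -0.15 for Flna in 2d-U against F, and -0.39 for Acta1 in 5d-U against F.

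Fitting only the 2 groups compared called 2 genes and 35 pathway genes against 2d-U and 0 and 2 against F, where Flnc was 3.11 (edgeR adjusted p = 0.0583). Actg1 was -0.023 in 2d-U and 3.8e-05 in 5d-U against F, and Flna 0.049 in 5d-U against F. DESeq2 called 3 genes and 33 pathway genes against F, and 37 and 60 pathway genes for 5d-U against 2d-U and F. It gave -0.027 for Flnc in 5d-U against 2d-U, -0.12 and -0.032 for Actg1 and Flna in 2d-U against F, and -0.48 and -0.37 for Acta1 and Actg2 in 5d-U against F. Subtracting silent-family reads left 1 gene and 4 pathway genes called between 5d-U and 2d-U, with Flnc at -0.030 there and Acta1 and Actg2 at -0.33 and -0.18 in 5d-U against F.

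A term for the libraries with silent-family reads left 2 genes and 24 pathway genes called against 5d-U, 0 and 1 against F, 0 and 1 between 5d-U and 2d-U, and 2 genes between 2d-U and F. Actg1 was 0.18 in 5d-U against 2d-U and -0.25 in 2d-U against F. Leaving those 4 libraries out, an alternative chosen after seeing the data that keeps 1 library each of F and 5d-U, assumed to vary like the others, called 3 genes and 10 pathway genes against 5d-U, 3 genes against 2d-U, and 0 and 0 against F. It called 1 and 0 between 5d-U and 2d-U, 2 and 24 between 2d-U and F, and 0 and 1 between 5d-U and F. Against F, 2+3d-C turned to 1.86 for Acta1, 6.97 for Actc1 and 0 for Actg2, and 2d-U to -0.43 for Actg1, 1.97 for Acta1, 1.61 for Actc1 and 5.38 for Actg2. Flna was 0.048 in 5d-U against 2d-U and 0.76 against F.

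The study states that the cells of a sorted batch were divided at random among conditions, but the sources do not tie replicate numbers to batches. Deviations of libraries with the same number correlated at -0.42 to 0.03, which cannot show that pairing is absent. The libraries were not treated as pairs. 2+3d-C shares no number with 5d-U or 2d-U, so the block compares it with them only through F. The cultures without compression share only number 1 with F, so F replicate 1 carries that link. With the replicate block, pathway calls were 23 against 5d-U and 23 against 2d-U, the genes called were 2 against 2d-U and 4 against F, and 2 with 31 pathway genes were called between 2d-U and F and 1 with 11 between 5d-U and F. In this block fit 2+3d-C against 5d-U was 0.68 for Acta2 and -1.05 for Flna, against 2d-U -0.68 for Actc1 and -1.07 for Flna, and against F -0.19 for Flna. The block also gave 0.046 for Actg1 in 5d-U against 2d-U, -0.23 for Actg1 and 1.68 for Acta1 in 2d-U against F, and -1.52 for Acta2 and 0.86 for Flna in 5d-U against F. It ended the calls of Actb against 5d-U (-1.23, edgeR adjusted p = 0.519) and in 5d-U against F (2.12, adjusted p = 0.264), of Flnc in 5d-U against F (-2.59, adjusted p = 0.102) and of Actc1 in 2d-U against F (adjusted p = 1).

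Leaving out 1 library gave 2 to 6 of the 8 genes against 5d-U, 1 to 2 against 2d-U, 0 to 5 against F, 0 to 3 between 5d-U and 2d-U and 2 to 4 between 2d-U and F. Pathway calls ran from 25 to 52 against 5d-U, 0 to 23 against F, 1 to 18 between 5d-U and 2d-U and 23 to 45 between 5d-U and F. Against 2d-U, Acta1 ran from -1.09 to 0.14, Actg2 from -5.90 to 0 and Flna from -0.17 to 0.93, and Flnc in 5d-U against 2d-U from -0.28 to 0.73. In 2d-U against F, Actg1 ran from -0.12 to 0.66 and Flna from -0.12 to 0.92. In 5d-U against F, Actg1 ran from -0.36 to 0.38, Acta1 from -0.39 to 0.98, Actg2 from -0.85 to 0.60 and Flna from -0.42 to 0.61. Of read counts in place of RPKM, the muscle-type share of 2d-U was 6.12%. At these depths, 3 reads are the least that was read as a level, which limits Actc1 in 2d-U and Actg2 in 2+3d-C. It also limits Actc1 in F replicate 1 and 2+3d-C replicate 10, and Actg2 in F replicate 1 and 2d-U replicates 1 and 2. Actg2 had at most 110 reads in a library.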
